A study of Mus musculus with 4 samples.

Results

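The genes described here encode the nuclear-encoded subunits of the mitochondrial respiratory chain and of the ATP synthase, together with a few proteins named after them. They were chosen by name, as every gene that a probe set's platform annotation names alone and whose symbol begins with Nduf, Uqcr or Atp5, lies between Cox4 and Cox8, or is Sdha, Sdhb, Sdhc, Sdhd or Cyc1. This gave 90 of the 19937 genes measured, read by 114 probe sets, and 17 genes had several. Each gene was represented by its probe set of highest mean. By complex, 34 encode subunits of complex I, 4 of complex II, 9 of complex III, 17 of complex IV and 17 of the ATP synthase (complex V). The other 9 were 7 complex I assembly factors (Ndufaf genes), the supercomplex factor gene Cox7a2l and Ndufa4l2, a paralog of Ndufa4. Ndufa4 is counted with complex IV, of which its product is now regarded as a subunit.

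RNA came from resting splenic CD4 T cells of IfitmF-/- mice, which lack the whole interferon-inducible transmembrane gene family in every cell, and of wild-type (WT) mice, with 2 Affymetrix arrays per genotype. The labels give adult animals of 6 to 8 weeks and a negative selection, in which antibodies take away the other splenocytes and leave the CD4 T cells untouched. The mice were on a C57BL/6 background and untreated, every array carried the pooled cells of a pair of mice, and the cells of each array were purified apart. Values are log2 RMA intensities, and every change is IfitmF-/- minus WT in log2 units.

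The respiratory chain passes electrons from NADH (complex I) and succinate (complex II) through coenzyme Q, complex III and cytochrome c to oxygen at complex IV, and the proton gradient that complexes I, III and IV build drives the ATP synthase. A few core subunits of each complex carry the cofactors or the catalytic sites. Many small supernumerary subunits surround them, which serve assembly and stability. Resting T cells are known to draw much of their ATP from this pathway, and activated T cells add glycolysis. The 13 subunits that mitochondrial DNA itself encodes were looked up by name, and 0 were found among the genes measured, so nothing is said of them here.

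Most of these genes were higher in IfitmF-/- than in WT cells by a small margin, and few of the differences passed the test. The change was positive in 66 of 90 genes (73.3%), against 46.3% of all genes and 54.7% of the other genes with a mean log2 intensity of at least 8. The median change was 0.19, against -0.020 over all genes and 0.036 over the other genes at or above 8. By limma with Benjamini-Hochberg adjustment over all probe sets, 7 genes were called higher at an adjusted p under 0.05: Ndufs4, Ndufc2, Ndufv2, Uqcrh, Cox7b, Atp5j2 and Ndufaf1. This is 7.78% of the 90 genes, against 4.96% of all genes called higher and 9.32% of all genes at or above 8, so the share called was near that of bright genes. None (0 of 90) was called lower in limma, against 3.61% of all genes and 9.26% of those at or above 8. At an unadjusted p under 0.05, 5 genes were lower in limma (11.5% of all genes and 20.7% of those at or above 8). The test without pooled spread that the study used for single genes gave 21 higher and 5 lower before adjustment, against 11.4% and 10.3% of all genes, and 0 after it. Higher at an unadjusted p under 0.05 were 35 genes, or 38.9%, compared with 14.3% of all genes and 26.1% of those at or above 8. Among the 65 members at or above 8 themselves, 6 were called higher (9.23%) and 50 had a positive change. Both IfitmF-/- arrays lay above both WT arrays for 52 genes (27.9% of all genes; 43.2% at or above 8) and below them for 14 (30.8% and 35%). No member changed by more than 2-fold, and so 0 of 90 passed a filter on fold and range with the thresholds of the study's methods, as applied here to 1 probe set per gene, which 1.28% of all genes passed. The study's own selection of genes was not used here. The comparison with all genes is a description without a test. The count of calls depended on how the spread was pooled and on how many probe sets were adjusted for: it was 12 higher and 2 lower with a spread that follows intensity (6.16% and 4.67% of all genes), 18 of 81 higher and 3 lower without dim probe sets (14.2% and 10.3%) and 17 higher and 3 lower over probe sets of 1 gene (8.01% and 5.98%).

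**Figure D1:**
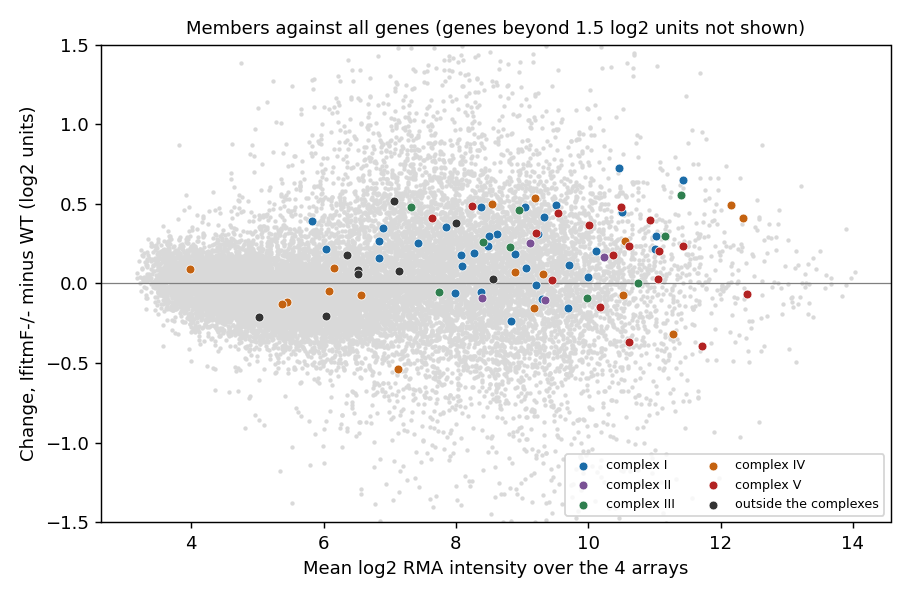
Change of each gene (y axis, IfitmF-/- minus WT, log2 units) by the gene's average log2 intensity on the arrays (x axis), with all genes in grey and the 90 members coloured by complex. Most coloured points lie above 0 and all lie between -0.54 and 0.72, inside the cloud of the other genes.

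Some features of the 4 arrays touch every value that follows. Arrays of a genotype correlated at 0.991 for IfitmF-/- and 0.993 for WT, and arrays of different genotypes at 0.976 to 0.979. The deleted gene Ifitm3 was at 4.61 and 4.36 on the IfitmF-/- arrays, against 9.26 and 8.91 on the WT arrays. Xist, which female cells transcribe from their inactive X chromosome, stood at 4.86 and 4.43 on the IfitmF-/- arrays and at 11.32 and 11.25 on the WT arrays, so sex and genotype cannot be told apart. Leaving out any 1 array left 0 calls in each case. Such a fit sets 1 array against 2, with 1 residual degree of freedom from the other genotype, and assumes that the lone array varies like those, so it says little of the stability of a call. The defining T cell genes were bright on every array, with Cd4 at 11.79 and 11.71 in IfitmF-/- and at 11.44 and 11.52 in WT cells. Of the 6 measured T cell markers (of 8 listed) 3 were called, in both directions: Cd3d and Cd3g were higher (change 0.59 each, adjusted p = 0.0284 and 0.0304) and Cd28 was lower (change -0.74, adjusted p = 0.0202). Among all genes at or above 8, 9.32% were called higher and 9.26% lower. Markers of other splenic cells were present and moved with genotype or with 1 array. The summed linear intensity of 7 measured B cell markers (of 8 listed) was 2611 and 4201 in IfitmF-/- cells, against 8714 and 3139 in WT cells. That of 5 erythroid markers (of 8) was 6938 and 6254 in IfitmF-/- cells, against 2752 and 4365 in WT cells. That of 4 platelet markers (of 5) was 4556 and 10368 in IfitmF-/- cells, against 3563 and 2320 in WT cells. Plasma cell markers (6 of 6) summed to 2998 and 2925 in IfitmF-/- and to 7496 and 5898 in WT cells. In all 6 both IfitmF-/- arrays lay below both WT arrays (30.8% of all genes). Of them 2 were called lower (3.61% of all genes), Xbp1 (change -1.58, adjusted p = 0.0115) and Irf4 (change -2.11, adjusted p = 0.0264). Irf4 also serves helper T cells, so this sum need not read plasma cells alone. Myeloid markers (7 of 7) summed to 4803 and 9390 in IfitmF-/- and to 7562 and 4603 in WT cells, with each genotype split between its arrays. NK cell markers (6 of 7) summed to 2003 and 1878 in IfitmF-/- and to 2536 and 2036 in WT cells. This sum followed Nkg7, which was called lower (change -0.89, adjusted p = 0.0321), while 4 of the 6 NK cell markers had a positive change and the median over them was 0.38. Neutrophil markers (6 of 6) summed to 449.8 and 593.0 in IfitmF-/- and to 367.7 and 649.1 in WT cells. In 4 of these 6 both IfitmF-/- arrays were above both WT arrays (27.9% of all genes). Retnlg was called higher (4.96% of all genes), at 6.94 and 7.21 in IfitmF-/- and at 5.24 and 5.25 in WT cells (change 1.83, adjusted p = 0.0136). CD8 T cell markers (2 of 2) summed to 435.2 and 425.2 in IfitmF-/- and to 503.9 and 340.8 in WT cells. The part of these markers in the results was not tested, and fewer cells of a type cannot be told apart from less RNA per cell. For a marker that CD4 T cells also use, such as Irf4, a change within the CD4 T cells cannot be told apart either.

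Complex I, the NADH dehydrogenase, is the entry point of most electrons and the largest complex of the chain. Of its 34 measured subunit genes 28 had a positive change, with a median of 0.23 and a range of -0.24 to 0.72. Of these 34 genes 3 were called higher (8.82%), near the 9.32% of all genes at or above 8. Both IfitmF-/- arrays lay above both WT arrays for 23 (67.6%), against 27.9% of all genes and 43.2% of those at or above 8. They lay below for 3 (8.82%), against 30.8% and 35%.

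The largest change of any member was that of Ndufs4, a supernumerary subunit at the NADH-oxidising end, whose loss in mice causes a fatal brain disease that resembles Leigh syndrome. It was at 10.80 and 10.87 on the IfitmF-/- arrays, against 10.13 and 10.09 on the WT arrays. Both IfitmF-/- arrays were thus high and both WT arrays low, with little spread within a genotype (10.83 ± 0.05 in IfitmF-/- and 10.11 ± 0.02 in WT, SD, n = 2 each). The change of 0.72 (95% interval 0.51 to 0.94), a 1.65-fold rise, had an adjusted p of 0.0218 in limma. Ndufc2, a small subunit of the membrane arm, was at 11.72 and 11.79 in IfitmF-/- cells, against 11.08 and 11.12 in WT cells. It rose by 0.65 log2 units (95% interval 0.44 to 0.87), or 1.57-fold, with an adjusted p of 0.0258 in limma. Again the genotypes lay far apart relative to their arrays.

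Ndufv2 was the called gene among the core subunits, and its product holds an iron-sulfur cluster next to the site of NADH oxidation. It was at 10.73 and 10.75 in IfitmF-/- cells, against 10.31 and 10.27 in WT cells, a rise of 0.45 (adjusted p = 0.0448 in limma). All 6 measured core genes had a positive change, with a median of 0.20, although only Ndufv2 passed the test. In all 6 both IfitmF-/- arrays were above both WT arrays (43.2% of all genes at or above 8). Ndufv1, which binds the flavin that takes electrons from NADH, was at 8.92 and 9.05 in IfitmF-/- and at 8.76 and 8.84 in WT cells. Ndufs1, which holds iron-sulfur clusters of the same arm, was at 8.34 and 8.40 in IfitmF-/- and at 8.12 and 8.24 in WT cells. In each of these 2 genes the gap between genotypes was about as wide as the spread of the arrays, and the 95% intervals of the change included 0 (-0.059 to 0.43 for Ndufv1 and -0.044 to 0.43 for Ndufs1). Of the subunits that carry electrons on towards coenzyme Q, Ndufs7 was at 11.07 and 11.17 in IfitmF-/- and at 10.93 and 10.87 in WT cells. Ndufs8 was at 10.05 and 10.39 in IfitmF-/- and at 9.998 and 10.04 in WT cells, with IfitmF-/- replicate 2 far above the other 3 arrays. Ndufs3 was at 9.75 and 9.78 in IfitmF-/- and at 9.67 and 9.62 in WT cells, the smallest change of the core genes (0.12, 95% interval -0.094 to 0.33).

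Among the 28 supernumerary genes 22 had a positive change, and 2 were called (7.14%, against 4.96% of all genes called higher). At an unadjusted p under 0.05 in limma 13 were higher and 1 was lower (14.3% and 11.5% of all genes). Ndufc1, Ndufb2, Ndufab1, Ndufa6, Ndufb9 and Ndufb11 came next after the called genes, with changes of 0.30 to 0.49 and adjusted p values of 0.0641 to 0.0960. The other, dimmer probe set of Ndufc1 was called higher (change 0.55, adjusted p = 0.0490 in limma), so its call depends on the probe set. Ndufab1 encodes the mitochondrial acyl carrier protein and was at 8.00 and 8.06 in IfitmF-/- cells, against 7.67 and 7.69 in WT cells. Its other probe set gave a change of 0.64, with IfitmF-/- arrays at 8.14 and 7.50 (adjusted p = 0.185 in limma). Ndufb2, the dimmest complex I probe set, was at 6.01 and 6.02 in IfitmF-/- cells, against 5.57 and 5.69 in WT cells, a level below which 41.9% of all probe sets lay. The 6 genes with a negative change were Ndufa8, Ndufa10, Ndufb6, Ndufb7, Ndufv3 and Ndufa9, from -0.24 to -0.0092. Of these Ndufa8, chosen here after its values were seen, was at 8.70 and 8.73 in IfitmF-/- cells, against 8.97 and 8.93 in WT cells (adjusted p = 0.155). Ndufs5 was the least certain value, at 6.72 and 7.44 in IfitmF-/- and at 6.58 and 6.88 in WT cells, with overlap and a 95% interval of -0.39 to 1.08.

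Complex I assembly factors join the modules of the complex and do not stay in it. Of the 7 Ndufaf genes measured, 6 had a positive change (46.3% of all genes) and 1, Ndufaf1, was called (4.96% of all genes called higher). Ndufaf1, part of the group of proteins that builds the membrane arm, was at 7.34 and 7.30 in IfitmF-/- cells, against 6.77 and 6.83 in WT cells, a rise of 0.52 (adjusted p = 0.0373 in limma). Ndufaf3 came next with 8.08 and 8.31 in IfitmF-/- and 7.82 and 7.81 in WT cells (adjusted p = 0.118). The other 5 had changes of -0.21 to 0.18, with 4 of them positive. Assembly factors of all complexes outside the naming rule came from a further list of 40 genes, of which 36 were measured, with a median change of 0.24. They were called higher in 7 cases and lower in 2 (4.96% and 3.61% of all genes). Of these Tmem126b, which works with Ndufaf1, rose by 1.23 (adjusted p = 0.0141). Other listed factors for the same arm did not share 1 direction. Acad9 was called lower (change -0.56, adjusted p = 0.0307), Timmdc1 was called higher (change 0.52, adjusted p = 0.0406) and Ecsit had a change of 0.016. Sdhaf1, an assembly factor of complex II, fell by 0.93 (adjusted p = 0.0150), while Atpaf1, a factor for the head of the ATP synthase, rose by 0.64 (adjusted p = 0.0239).

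**Figure D2:**
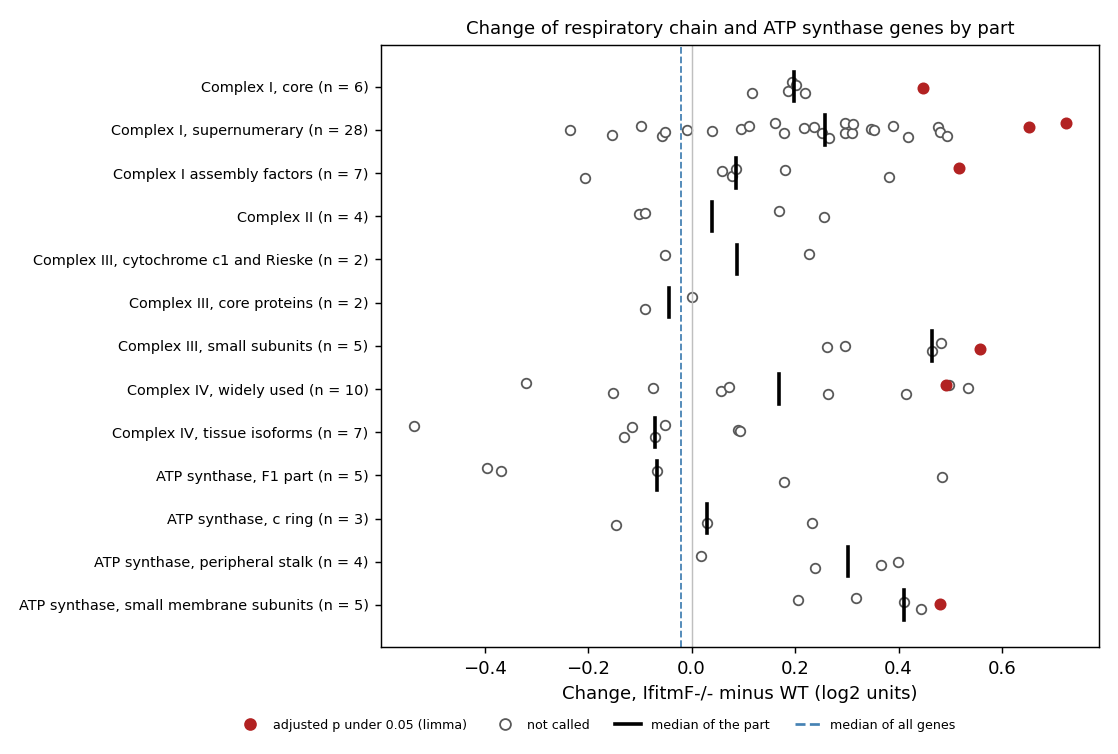
Change of the members (x axis, IfitmF-/- minus WT, log2 units) by complex and part (rows), each circle a gene; red circles passed an adjusted p under 0.05 in limma, a black bar stands at each row's median and the dashed line the median of all genes at -0.020. The small subunits of complex III (median 0.46) and the small membrane subunits of the ATP synthase (median 0.41) lie farthest right. The tissue isoforms of complex IV (-0.070) and the F1 part of the ATP synthase (-0.067) have the lowest medians, left of 0. Cox7a2l and Ndufa4l2 are not drawn.

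Complex II, succinate dehydrogenase, is also an enzyme of the TCA cycle and pumps no protons. Its 4 genes showed no common direction, with a median change of 0.039 (0.073 without WT replicate 1), and 0 were called by limma, with 1 higher at an unadjusted p under 0.05, and the test without pooled spread gave 0 at that threshold. Sdha, the flavoprotein that oxidises succinate, was at 10.36 and 10.28 in IfitmF-/- cells, against 10.18 and 10.12 in WT cells. Sdhb, which holds the iron-sulfur clusters, was at 9.28 and 9.33 in IfitmF-/- cells, against 9.45 and 9.35 in WT cells. The arrays of both genes were apart without overlap, but in opposite directions and by margins close to their spread (changes of 0.17 and -0.10, adjusted p = 0.285 and 0.515). Of the membrane anchors, Sdhc was at 9.20 and 9.29 in IfitmF-/- and at 9.03 and 8.95 in WT cells (adjusted p = 0.157). Sdhd was at 8.27 and 8.43 in IfitmF-/- and at 8.38 and 8.51 in WT cells, with overlap. The other TCA cycle genes (12 of 13 listed were measured) had a median change of 0.019 and 0 calls.

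Complex III passes electrons from coenzyme Q to cytochrome c. Its 5 small subunit genes were all positive, from 0.26 to 0.56, whereas the 2 catalytic and 2 core protein genes ranged from -0.089 to 0.23. In all 5 small subunit genes both IfitmF-/- arrays were above both WT arrays (27.9% of all genes, 43.2% at or above 8). The difference between these parts was not tested. Uqcrh, the acidic hinge protein at the docking site of cytochrome c, was at 11.71 and 11.67 in IfitmF-/- cells, against 11.15 and 11.11 in WT cells (11.69 ± 0.03 and 11.13 ± 0.03, SD, n = 2 each). It was the called gene of this complex, 1 of 9 (11.1%), against 4.96% of all genes called higher and 9.32% of those at or above 8. Its rise was 1.47-fold (change 0.56, 95% interval 0.35 to 0.77, adjusted p = 0.0314 in limma). Uqcrq was close behind, at 9.12 and 9.24 in IfitmF-/- and at 8.75 and 8.68 in WT cells, and missed the threshold (adjusted p = 0.0545). Uqcr11, the dimmest of the complex, was at 7.34 and 7.79 in IfitmF-/- cells, against 6.97 and 7.19 in WT cells, where the spread of the arrays was wide and the interval of the change ran from -0.012 to 0.98.

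The catalytic subunits of complex III showed smaller values. Cyc1, the heme protein that hands electrons to cytochrome c, was at 8.91 and 8.94 in IfitmF-/- cells, against 8.65 and 8.75 in WT cells (change 0.23, adjusted p = 0.188). Uqcrfs1, the Rieske iron-sulfur protein, was at 7.72 and 7.71 in IfitmF-/- cells and at 7.93 and 7.60 in WT cells, whose arrays enclosed both IfitmF-/- values. Uqcrc1 and Uqcrc2, the core proteins, had changes of -0.089 (95% interval -0.35 to 0.17) and 0.0019 (-0.23 to 0.24), with overlap in each. Beyond the rule, a list of cytochrome c and coenzyme Q genes (14 of 15 measured) had 2 called higher and 3 lower (4.96% and 3.61% of all genes). Coq10b, whose product binds coenzyme Q, fell by 1.90 (adjusted p = 0.0141), Coq3 rose by 0.90 (adjusted p = 0.0292) and the kinase-like Coq8a fell by 0.74 (adjusted p = 0.0307).

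Complex IV, cytochrome c oxidase, reduces oxygen to water. Its catalytic core is encoded by mitochondrial DNA, and the genes here encode the surrounding subunits, several of which exist in a widely used form and a form of particular tissues. Over all 17 genes the median change was 0.058, or 0.0033 without IfitmF-/- replicate 2, 0.016 without WT replicate 1 and 0.031 without WT replicate 2, and over the 10 widely used ones, in a choice made after the values were seen, it was 0.17, with 7 positive. Cox7b, an X-linked gene, was at 12.42 and 12.40 in IfitmF-/- cells, against 11.95 and 11.88 in WT cells, and was the called gene of the complex (change 0.49, a 1.41-fold rise; adjusted p = 0.0408 in limma). Its other probe set gave a change of 0.49 as well (adjusted p = 0.0418). With Cox7b, 1 of the 17 genes was called (5.88%), against 4.96% of all genes called higher and 9.32% of those at or above 8. Positions of the probe sets were not used here, and for a gene with several the brightest may read a processed copy elsewhere in the genome rather than the parent gene, so the X-linkage is that of the annotated gene. The other X-linked members, Ndufb11 and Ndufa1, had changes of 0.30 and 0.25 and were not called. Cox6c lay at the threshold, with 12.53 and 12.56 in IfitmF-/- and 12.12 and 12.14 in WT cells (adjusted p = 0.0508). Cox7a2 was at 9.48 and 9.45 in IfitmF-/- and at 9.06 and 8.80 in WT cells (adjusted p = 0.0687). Ndufa4 was at 8.69 and 8.91 in IfitmF-/- and at 8.24 and 8.37 in WT cells (adjusted p = 0.0783). In these 3 genes both IfitmF-/- arrays were above both WT arrays (27.9% of all genes, 43.2% of those at or above 8).

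Other widely used subunits of complex IV went the other way, showed little difference or, for Cox6b1, were higher without being called. Cox5b, chosen here after its values were seen, was at 11.15 and 11.09 in IfitmF-/- cells, against 11.33 and 11.55 in WT cells (change -0.32, adjusted p = 0.156), and its other probe set gave -0.38. Cox8a was at 10.43 and 10.54 in IfitmF-/- and at 10.57 and 10.55 in WT cells, a change of -0.074 (95% interval -0.30 to 0.15). Cox4i1 was at 9.35 and 9.33 in IfitmF-/- and at 9.25 and 9.31 in WT cells, with a change of 0.058 (95% interval -0.15 to 0.27). Cox6a1 was at 8.95 and 9.25 in IfitmF-/- and at 9.28 and 9.22 in WT cells, with overlap. Cox6b1 was at 10.55 and 10.83 in IfitmF-/- and at 10.41 and 10.44 in WT cells (change 0.26, adjusted p = 0.259). Both its IfitmF-/- arrays were thus above both WT arrays.

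Of the 7 tissue isoforms 0 were called by limma, with 1 lower at an unadjusted p under 0.05, and the test without pooled spread at that threshold gave 2 lower (Cox6a2 and Cox8b). They are known from tissues other than the spleen, and most were dim. Cox7b2, known from testis, was at 3.95 and 4.12 in IfitmF-/- and at 3.92 and 3.97 in WT cells, where 7.85% of probe sets were dimmer. The muscle isoforms Cox7a1 and Cox8b lay at 5.19 to 5.51 on all 4 arrays, with 33.1% and 34.8% of probe sets dimmer. Cox8c (5.86 to 6.26) and Cox6b2 (6.03 to 6.28), which are testis forms, and the lung form Cox4i2 (6.49 to 6.63) lay around the middle of the array, and the genotypes overlapped in these 3. Cox6a2, a heart and muscle form, was at 6.91 and 6.81 in IfitmF-/- cells, against 7.50 and 7.30 in WT cells, the most negative change of all members (-0.54, 95% interval -0.82 to -0.25), which missed the threshold (adjusted p = 0.0581).

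The ATP synthase consists of the F1 part, a catalytic head with its central stalk, the membrane-embedded c ring that turns with the proton flow, a peripheral stalk that holds the head still, and small membrane subunits that serve the pairing of the enzyme along the cristae. Of the 17 genes 13 had a positive change, with a median of 0.23, and the direction differed among the parts. The 5 small membrane subunit genes and the 4 peripheral stalk genes were all positive, from 0.019 to 0.48. Of the 5 F1 genes 3 were negative and 2 positive (Atp5e and Atp5c1, the latter by 0.18). In none of the 5 did the genotypes overlap. Among all genes at or above 8, both IfitmF-/- arrays lay below both WT arrays in 35% and above them in 43.2%. The difference between the parts was not tested.

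**Figure D3:**
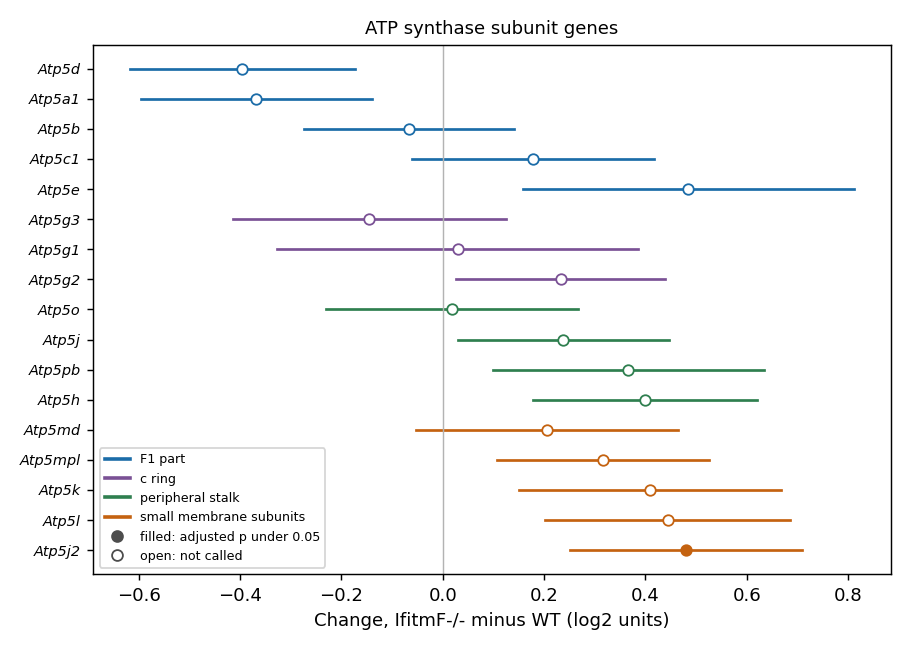
Change of each ATP synthase gene (x axis, IfitmF-/- minus WT, log2 units) with its 95% interval from limma, by part of the enzyme (colours); Atp5j2 is filled because its adjusted p was under 0.05. The intervals of Atp5d and Atp5a1 lie wholly below 0 and those of 9 genes, among them Atp5j2, Atp5l and Atp5k, wholly above it. Each gene is drawn by its brightest probe set alone.

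Atp5j2, which encodes subunit f of the membrane part, was at 10.69 and 10.78 in IfitmF-/- cells, against 10.22 and 10.29 in WT cells. It was called (change 0.48, a 1.39-fold rise, adjusted p = 0.0471 in limma). This is 1 of the 17 genes of the complex (5.88%), against 4.96% of all genes called higher and 9.32% of those at or above 8. Atp5l, which encodes subunit g, was at 9.75 and 9.79 in IfitmF-/- and at 9.26 and 9.39 in WT cells (adjusted p = 0.0605). This gene was read by 5 probe sets that did not agree. Their changes were 0.44, 0.67, 0.65, -0.46 and 0.80, and 2 of them were called higher (adjusted p = 0.0374 and 0.0258), so its value depends on the probe set. Atp5k, subunit e and the dimmest of the complex, was at 7.75 and 7.93 in IfitmF-/- cells, against 7.43 on both WT arrays (adjusted p = 0.0812). In the peripheral stalk, Atp5h was at 11.15 and 11.10 in IfitmF-/- and at 10.76 and 10.69 in WT cells (adjusted p = 0.0626), Atp5pb had a change of 0.37 and Atp5j one of 0.24, while Atp5o, which joins the stalk to the head, had a change of 0.019 (95% interval -0.23 to 0.27).

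The catalytic subunits of the head did not share this direction. Atp5a1, the alpha subunit, was at 10.43 and 10.43 in IfitmF-/- cells, against 10.74 and 10.85 in WT cells (change -0.37, 95% interval -0.60 to -0.14; adjusted p = 0.0785). Atp5b, the beta subunit, which forms ATP, was at 12.38 and 12.35 in IfitmF-/- cells and at 12.42 and 12.45 in WT cells (change -0.067, 95% interval -0.27 to 0.14). Atp5d, the delta subunit of the central stalk, chosen here after its values were seen, was at 11.55 and 11.51 in IfitmF-/- and at 11.88 and 11.97 in WT cells (change -0.40, adjusted p = 0.0646). Its partner Atp5e, the epsilon subunit, had the opposite change, at 8.51 and 8.45 in IfitmF-/- and at 8.13 and 7.86 in WT cells (change 0.48, adjusted p = 0.0929). None of these 4 genes passed the threshold. Atp5g1, Atp5g2 and Atp5g3 encode the same mature c subunit and had changes of 0.029, 0.23 and -0.15, with intervals that included 0 for Atp5g1 and Atp5g3. Atp5g2 was read by 3 probe sets with changes of 0.23, -0.011 and 0.46, so its value depends on the probe set.

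**Figure D4:**
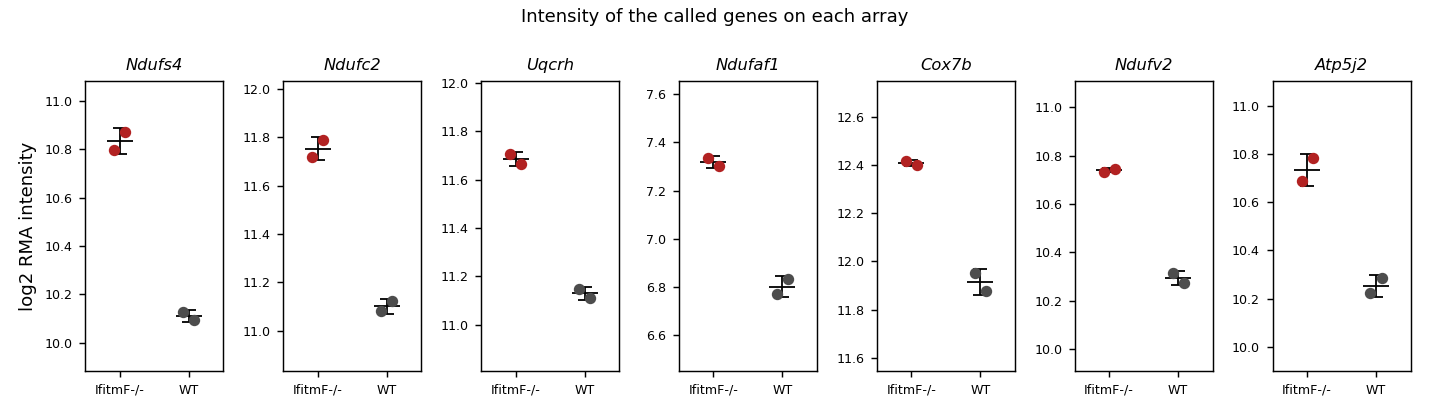
log2 RMA intensity (y axis, the same span of 1.2 log2 units in each panel) of the 7 called genes on each array, with the mean and SD of each genotype (n = 2). In every panel both IfitmF-/- arrays lie above both WT arrays.

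Promoters are shown for 4 of the called genes, Ndufs4 as the gene of largest change and the 3 whose 250 bases before the start hold a searched motif, since promoters of this pathway are known for a few recurring motifs. The motifs searched on both strands, in 300 bases from 250 before to 50 after the start, were CCGGAAG (the ETS factor GABPA, a classical regulator of these genes), GCATGCG (NRF1), AAGATGG (YY1) and GGGCGG (SP1). None of these strings contains another, and the NRF1 string and its reverse complement share their core letters. Capitals mark a match, read 5′ to 3′ on the gene's strand up to the base before the start, from RefSeq in GRCm38.p6.
Uqcrh, chr4:116075071-116075320, minus strand: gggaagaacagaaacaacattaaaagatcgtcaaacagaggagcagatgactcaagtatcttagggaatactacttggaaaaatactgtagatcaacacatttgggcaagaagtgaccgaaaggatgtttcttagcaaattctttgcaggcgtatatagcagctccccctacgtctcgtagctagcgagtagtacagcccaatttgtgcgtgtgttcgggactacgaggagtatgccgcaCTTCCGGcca
Ndufaf1, chr2:119662835-119663084, minus strand: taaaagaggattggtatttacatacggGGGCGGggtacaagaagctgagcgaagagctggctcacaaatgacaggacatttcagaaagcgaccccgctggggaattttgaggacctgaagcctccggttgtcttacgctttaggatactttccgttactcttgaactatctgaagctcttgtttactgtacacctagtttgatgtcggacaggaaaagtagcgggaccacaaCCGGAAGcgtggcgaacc
Ndufv2, chr17:66101560-66101809, minus strand: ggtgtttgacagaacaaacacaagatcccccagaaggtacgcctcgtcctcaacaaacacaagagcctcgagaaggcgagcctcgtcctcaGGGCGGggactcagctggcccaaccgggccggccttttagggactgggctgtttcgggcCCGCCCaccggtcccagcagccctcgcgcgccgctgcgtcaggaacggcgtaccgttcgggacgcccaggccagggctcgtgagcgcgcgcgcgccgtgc
Ndufs4, chr13:114388095-114388344, minus strand: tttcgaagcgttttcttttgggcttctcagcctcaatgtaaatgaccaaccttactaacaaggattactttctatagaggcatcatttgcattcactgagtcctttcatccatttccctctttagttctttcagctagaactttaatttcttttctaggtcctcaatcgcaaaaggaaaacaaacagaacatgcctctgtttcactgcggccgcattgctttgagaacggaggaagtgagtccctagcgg

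The motif shares describe the pathway and not the change. Of the 73 members with a promoter in the table, 18 held the GABPA letters (24.7%, against 13.6% of 15562 measured genes), 13 those of NRF1 (17.8% against 5.40%), 10 those of YY1 (13.7% against 7.25%) and 33 those of SP1 (45.2% against 53%). Of the 7 called genes 2 held the GABPA letters (Uqcrh and Ndufaf1), 2 those of YY1, in both cases past the start (Ndufs4 and Atp5j2), 2 those of SP1 (Ndufv2 and Ndufaf1) and 0 those of NRF1, and Cox7b and Ndufc2 held none. With 7 genes these counts give no contrast with the 66 members that were not called, of which 16 held the GABPA letters and 13 those of NRF1. The gene of the GABPA partner subunit, Gabpb1, was itself lower, at 8.64 and 8.66 in IfitmF-/- cells against 9.90 and 10.07 in WT cells (change -1.33, adjusted p = 0.0141). The genes Gabpa, Nrf1 and Yy1, whose motifs were searched, had changes of 0.071, 0.22 and 0.14 and were not called. A link of these factors to the members was not tested. Gabpb1 belongs to a list of mitochondrial DNA maintenance and transcription genes (17 of 18 measured) with a median change of 0.071. In this list 2 genes were called higher and 2 lower (4.96% and 3.61% of all genes). Among them Tfb1m rose by 1.08 (adjusted p = 0.0141) and Polg, the mitochondrial DNA polymerase, fell by 0.61 (adjusted p = 0.0304).

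Other large protein complexes of the cell were set beside these genes. The cytosolic ribosomal protein genes (61 measured) had a median change of 0.10, with 3 called higher (4.92%) and 0 lower. The mitochondrial ribosomal protein genes (77) had a median of 0.13, with 4 higher (5.19%) and 1 lower (1.30%). The proteasome subunit genes (39) had a median of -0.0040, with 4 higher (10.3%) and 1 lower (2.56%). Of all genes 4.96% were called higher and 3.61% lower. Positive changes made up 70.5%, 67.5% and 48.7% of these lists, compared with 73.3% here. The differences between the lists were not tested.

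Members with several probe sets, and probe sets shared with other genes, bear on how far a value belongs to 1 gene, because many of these genes have near-identical processed copies in the mouse genome. Counted apart, 11 of 114 probe sets were called higher and 0 lower in limma, against 4.48% and 3.95% of all probe sets. A further 6 probe sets name a member together with another gene and were left out. Of these, both that name Ndufb4 with Ndufb4b were higher (changes 1.04 and 0.76, adjusted p = 0.0299 and 0.0212), as was 1 that names Ndufs5 with its pseudogene (0.75, adjusted p = 0.0312), and the 3 that name Cox7c with a predicted gene had changes of 0.20 to 0.39 and were not called.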

How the data were processed

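The authors hybridised total RNA to Affymetrix Mouse Gene 1.0 ST arrays and deposited RMA intensity values on a linear scale. RMA subtracts background, gives all arrays one distribution of values and reduces each probe set to a single number, so a shift shared by all genes is removed. The submitters' processing notes name RMA and affy, and their versions are not given in the sources used here. After taking log2, all 34760 probe sets entered 1 linear model per probe set (R 4.3.3, limma 3.58.1, functions lmFit and eBayes, genotype as the only term, 2 residual and 2.39 prior degrees of freedom). P values were adjusted over all of them by Benjamini-Hochberg, and a gene counts as called where its adjusted p is under 0.05. The filter in the study's methods further asks for a change above 2-fold and for at least 250 linear units between the lowest and highest array. A single gene was named by the platform annotation for 21640 probe sets, several genes for 1321 and no gene for 11799. All 90 members were found in the gene table of GRCm38.p6. The number of arrays limits precision, and p-values measure the spread between separately purified pools. The fit was tested on simulated data, where it called 466 of 1000 changes of 0.5 log2 units. Of 1000 changes of 1.0 it called 803, and of 1000 changes of 2.0 it called 929, with 109 false calls. The simulated noise was normal and independent between arrays, scaled by each probe set's spread, and held no difference of sex or cell types. These rates therefore describe the fit and are not error rates of the calls made here.

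The members and gene lists were chosen with earlier results of these data known. Genes named with values on every array were, by rule, the called members, the core subunits, the complex IV isoforms with their partners and the brightest and dimmest subunit of each complex. Others are marked or were named for lying near the threshold. Alternatives were eBayes with a trend or robust, a new quantile normalization, centring on the median, removal of dim probe sets, probe sets with 1 gene alone, the mean over a gene's probe sets, that filter applied to the members, the study's t-test, replicate number as a block and leaving out each array.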

Additional observations from a re-analysis of the deposited data

How the results depend on the processing

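The number of members called higher, 7 in all, stayed at 7 with robust eBayes, with renewed quantile normalization and with gene table symbols, was 9 after median centring, 8 with the mean over probe sets and 6 without the X-linked members, and the same 7 genes were among the calls in each except the last, which leaves out Cox7b. It was 12 with trend eBayes (2 lower: Atp5a1 and Atp5d; 6.16% of all genes higher and 4.67% lower in that fit), 17 with probe sets of 1 gene (3 lower, the same 2 and Cox6a2; 8.01% and 5.98%) and 18 of 81 without dim probe sets (3 lower; 14.2% and 10.3%), where fewer probe sets are adjusted for. Counting every probe set gave 11 of 114. The methods' t-test gave 21 higher and 5 lower unadjusted and 0 after adjustment, and the thresholds of fold and range from the study's methods, applied to these probe sets, gave 0. Leaving out each array, with 1 residual degree of freedom and a lone array assumed to vary like the others, gave 0 to 0 calls, while 17 to 32 members were higher and 2 to 4 lower at an unadjusted p under 0.05, all 7 called genes among them, and 59 to 68 members stayed positive.

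The replicate block gave 0 calls and the crossed replicate block 0, against 7 without a block; equal numbers deviated against each other (correlation -0.124), so the numbers do not pair the arrays, and the crossed pairing was added after seeing the data. The median change of complex I was 0.17 to 0.30 with each array left out, that of complex II 0.041 to 0.073 and that of complex IV 0.0033 to 0.044. The complex I median, 0.23, moved by more than the spread of its arrays (0.056) when either IfitmF-/- array was left out. It was 0.30 without replicate 1 and 0.17 without replicate 2. The medians of complexes II to V moved by less than the spread of their arrays under the alternatives computed for them (each array left out, both normalizations, the filter on dim probe sets, the mean over probe sets). For complexes II and IV that spread, 0.056 and 0.18, was wider than the median change itself, 0.039 and 0.058. It therefore says little of how stable the medians of complexes II and IV are. With each array left out, the change ran from -0.22 to 0.11 for Uqcrfs1, from -0.25 to 0.15 for Cox8c, from -0.014 to 0.71 for Ndufs5, from -0.14 to 0.039 for Ndufv3, from -0.18 to 0.060 for Ndufb7, from -0.062 to 0.043 for Ndufa9, from -0.061 to 0.065 for Uqcrc2, from -0.12 to 0.18 for Atp5g1 and from -0.046 to 0.084 for Atp5o. The change of Ndufa9 was 0.034 after median centring, and that of Atp5g1 was -0.052 as the mean over its probe sets. The other members named in the text kept their sign in the alternatives run, and none of these 9 genes was called in any. Among the 7 called members the smallest change was 0.45, that of Ndufv2.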
